A study of Rattus norvegicus with 11 samples.

Results

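The comparison described here sets defects filled with a chitosan scaffold (CTS) against defects left empty (NC), over all genes of the count table. Its members were chosen by their sample titles and are 6 of the 11 RNA-seq libraries of the series, 3 CTS and 3 NC. The CTS group held Sprague Dawley rats, 4 months old, whose rectangular defect across the coronal suture of the calvaria received a porous chitosan sponge crosslinked with tripolyphosphate and freeze-dried. The NC group held rats of the same strain and age with the same defect and no implant. In both groups the new tissue was taken 6 weeks after surgery and digested with collagenase, red cells were lysed, and the remaining cells were fixed, permeabilized, stained for Cd45 and sorted as Cd45-. The other 5 libraries, 3 from defects with gelatin methacryloyl hydrogel (GelMA) and 2 from defects with polylactic acid membrane (PLA), entered the statistical fit and are otherwise given only for reference. The labels do not say whether the 3 libraries of a group came from separate animals, so that the p-values measure the spread between these libraries, which may be technical. Each library is a bulk sample, in which fewer cells of a type and less RNA per cell cannot be told apart.

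Chitosan is a polysaccharide made from chitin, widely used as a porous filler because it degrades in tissue and binds cells and fluid. Macrophages and other phagocytes settle on most implants and take up their fragments, and the tissue response to an implant is usually followed through such cells and through the fibroblasts that lay down matrix around it. Interferons are secreted antiviral cytokines. Their receptors act through transcription factors, the interferon regulatory factors among them, on a shared set of target genes, among them Mx1, Oas1a, Isg15, Irf7 and the Ifit genes, which carry a purine-rich response element close to their transcription start.

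Total counts ran from 28377088 to 31290849 in the CTS libraries and from 22509898 to 27522199 in the NC libraries. Ptprc, the gene for Cd45 itself, stood at 1272, 1184 and 1036 counts scaled to a common library size (CPM) in CTS, against 1460, 336 and 1167 CPM in NC, so that the transcript of the sorting marker was present in every library labelled Cd45-. The fibrillar collagen genes Col1a1, Col1a2 and Col3a1 held 2.22%, 3.05% and 3.48% of counts in CTS, against 0.824%, 16.9% and 2.75% in NC. The alarmin genes S100a8 and S100a9, abundant in neutrophils, held 3.40%, 4.05% and 2.61% of counts in CTS, against 5.62%, 0.565% and 3.99% in NC. In each of these measures NC replicate 2 stood apart from the other NC libraries, and the CTS libraries lay between the NC values. The difference in mean was not distinguishable from 0 for the collagen share (exact permutation test, two-sided, p = 0.90) or for the S100a8 and S100a9 share (p = 1.0), in a design whose smallest possible p is 0.10.

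As whole profiles, the groups were close, and the empty defects differed more among themselves than the CTS defects did. The distance between 2 libraries was taken as the root mean square difference of their log2 CPM over 18049 genes. Within CTS it was 0.884 to 0.95, between CTS and NC it was 1.05 to 1.53, and within NC it was 1.38 to 1.87. The pair closest across groups, CTS replicate 2 with NC replicate 3 at 1.05, was thus closer than any pair within NC. Spearman correlations of CPM across genes, which are not independent replicates, ran from 0.971 to 0.978 within CTS, from 0.908 to 0.968 between the groups and from 0.883 to 0.958 within NC. The mean distance between groups exceeded the mean distance within groups by 0.0723, at 1.30 against 1.23 (exact permutation test over 20 label assignments, one-sided, p = 0.10, the smallest p possible). The same permutation test gave p = 0.4 on 1 minus the Spearman correlation and p = 0.2 on log2(FPKM + 1), neither the smallest possible. Leaving out NC replicate 1, 2 or 3 changed the excess in log2 CPM to 0.228, 0.202 and 0.258. Leaving out CTS replicate 1, 2 or 3 changed it to -0.105, -0.0686 and -0.0799. Without an NC library the close CTS pairs weigh more in the mean within groups. Without a CTS library the wide NC pairs weigh more. These shifts therefore do not show which library carries the separation. Of the 6 pairs of group means in the series, CTS and NC had the smallest distance, 0.797, and NC and PLA the largest, 1.36. Relative to CTS, the mean profile of GelMA lay at 0.892 and that of PLA at 1.21.

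**Figure D1:**
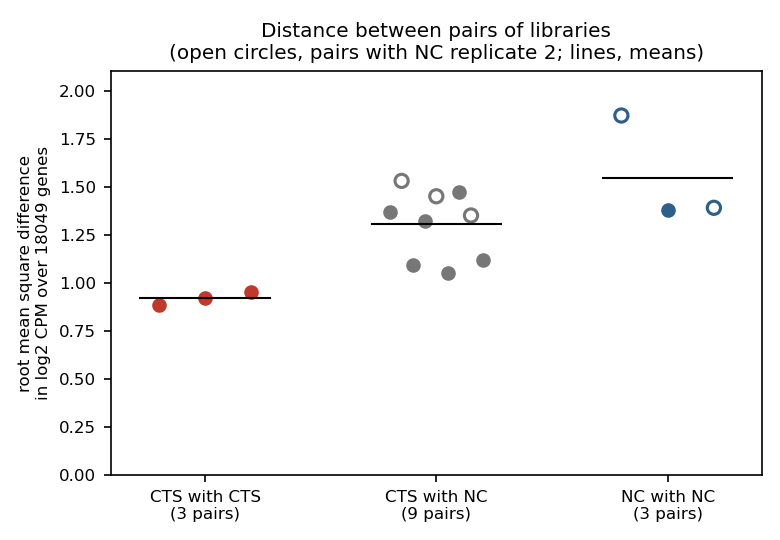
Root mean square difference in log2 CPM over 18049 genes (vertical axis) for every pair of the 6 libraries, grouped as CTS with CTS (red), CTS with NC (grey) and NC with NC (blue). Open circles are pairs with NC replicate 2 and lines are means. The 3 CTS pairs lie at 0.884 to 0.95, below every other pair, and the 3 NC pairs at 1.38 to 1.87.

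A gene was called at an adjusted p under 0.05 in edgeR's quasi-likelihood test (Benjamini-Hochberg adjustment over all genes tested) and a log2 fold change, CTS over NC, beyond 1 in size. Of 18049 genes tested, 28 were called higher in CTS, which is 0.155% of the genes, and 4 were called lower, which is 0.0222%, together 32 genes or 0.177%. At an unadjusted p under 0.05 there were 2149 genes, or 11.9%, of which 1284 were higher and 865 lower in CTS. All 3 CTS libraries lay above all 3 NC libraries for 1716 genes (9.51%) and below them for 923 genes (5.11%). Every called gene was among these. The calls sat at the threshold, with adjusted p between 0.0422 and 0.0474. All 32 genes kept their direction in each alternative fit that tested them. Their libraries did not overlap between the groups, which left these fits little room to turn the direction. Their number depended on single libraries of any group. Without CTS replicate 1, CTS replicate 3, any GelMA library or either PLA library the edgeR test called 0 genes (1299 to 2007 at an unadjusted p under 0.05), without NC replicate 3 it called 2 higher (Sh2d1b and Timd2), without CTS replicate 2 it called 129 higher and 3 lower, without NC replicate 1 it called 66 higher and 39 lower, and without NC replicate 2 it called 109 higher and 26 lower. With CTS and NC fitted alone, edgeR called 0 genes (1034 at an unadjusted p under 0.05), whereas DESeq2 called 159 higher and 113 lower, the 32 genes among them. DESeq2 values below are from that fit of CTS and NC alone, which tested 15966 genes. Without NC replicate 2 edgeR tested 17891 genes, of which 2946 had an unadjusted p under 0.05. Without NC replicate 1 it tested 17854, of which 3716 had such a p. The counts over all genes in this paragraph are the base for the list counts below. Without NC replicate 2, 30 of the 32 genes were called, the others being Ccl9 and Lilrb3, and without NC replicate 1, 26 were called, the others being Clec4a3, Gpr183, Lilrb3, Mx1, Oas1a and Samhd1.

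**Figure D2:**
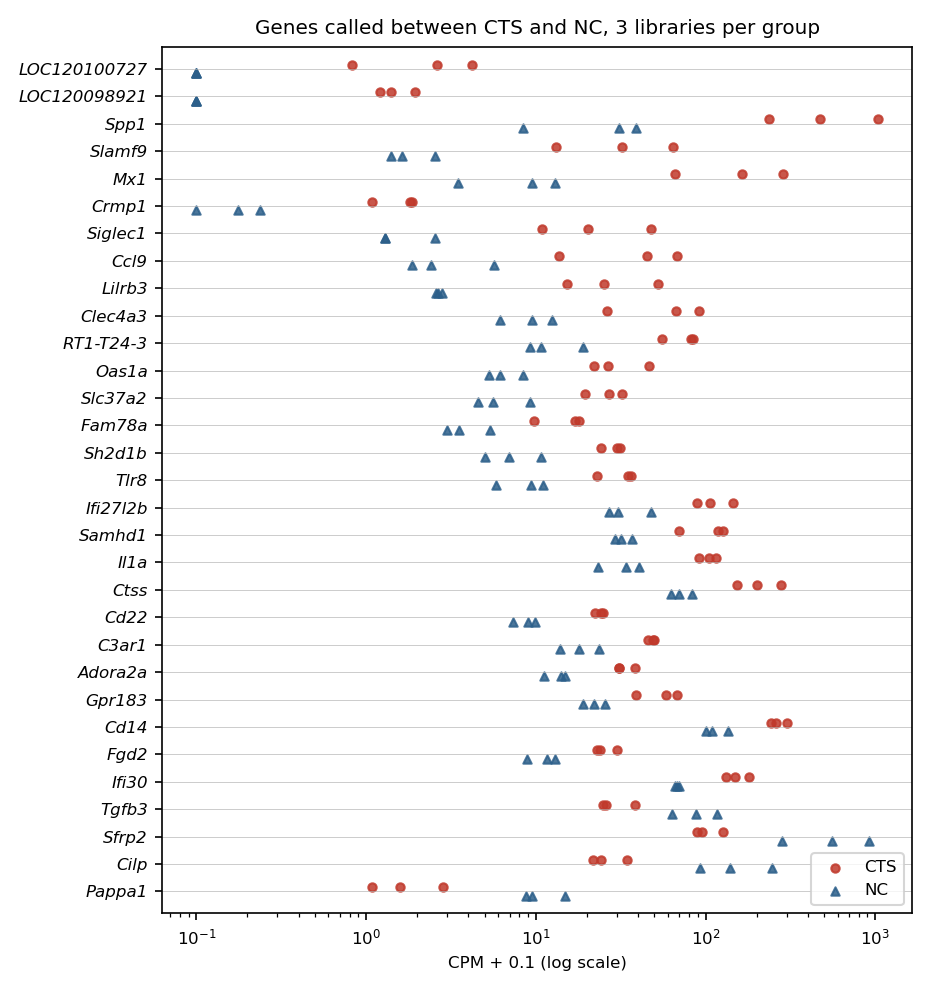
CPM plus 0.1 on a log scale (horizontal axis) of 31 of the 32 called genes, ordered by log2 fold change, in the 3 CTS libraries (red circles) and the 3 NC libraries (blue triangles). The groups do not overlap for any gene shown, which the threshold favours, and CTS replicate 2 is the lowest CTS library in 24 of all 28 genes called higher.

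Among the genes called higher, Mx1 and Oas1a are interferon targets by textbook knowledge. Mx1, a dynamin-like GTPase that blocks viral replication, had 163, 66.2 and 284 CPM in CTS, against 9.34, 12.9 and 3.37 CPM in NC. The lowest CTS library was thus well above the highest NC library, and the log2 fold change was 4.33 ± 0.67 (SE; edgeR, adjusted p = 0.0474). Oas1a, an oligoadenylate synthetase that activates antiviral RNA decay, had 26.6, 21.9 and 46.4 CPM in CTS, against 5.22, 6.01 and 8.27 CPM in NC (log2 fold change 2.28 ± 0.36). The called genes Siglec1, Samhd1, Ifi27l2b and Ifi30, known as inducible by interferons, were not on the interferon list. Siglec1, the sialic acid-binding receptor of macrophages, had 20.3, 10.8 and 47.3 CPM in CTS, against 1.19, 2.44 and 1.19 CPM in NC (log2 fold change 4.03 ± 0.56). Samhd1, a nucleotide hydrolase that restricts retroviruses, had 118, 70.1 and 126 CPM in CTS, against 31.7, 36.7 and 29.1 CPM in NC. Ifi27l2b, of the interferon-inducible Ifi27 family, had 106, 88.5 and 145 CPM in CTS, against 47.9, 30.4 and 26.8 CPM in NC. In these genes CTS replicate 3 was the highest library and CTS replicate 2 the lowest of its group. Ifi30, the thiol reductase of lysosomes, varied least, with 150, 133 and 179 CPM in CTS, against 66.1, 67.7 and 69.4 CPM in NC. RT1-T24-3, a nonclassical class I gene of the rat major histocompatibility complex, had 81.8, 55.7 and 84.0 CPM in CTS, against 9.12, 19.0 and 10.7 CPM in NC (log2 fold change 2.51 ± 0.32).

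Across the interferon list the direction was uniform, whereas the number of calls depended on the test. The list held 17 genes, all of which were measured and tested, and 2 were called higher by edgeR, Mx1 and Oas1a, against 0.155% of all genes. DESeq2 called 11 of the 17 higher with CTS and NC alone, against 159 of 15966 genes. With all 4 groups it called 13 higher, against 373 of 18049 genes. In edgeR the log2 fold change was positive for 17 of 17, with a median of 2.28 beside -0.0227 over all genes tested. An unadjusted p under 0.05 was reached by 16, against 11.9% of all genes. The summed level of the 17 was 4141, 1325 and 2498 CPM in CTS, against 592, 680 and 558 CPM in NC. The groups thus did not overlap, and the CTS libraries spanned a wide range. For 14 of the 17 genes, against 9.51% of all genes tested, all CTS libraries lay above all NC libraries. The others were Gbp2, Ifi44 and Ifit1. The list was written with earlier results of these data known. CTS replicate 2 was the lowest CTS library for 15 of the 17, all but Ifit1 and Irf9. Without NC replicate 2, Usp18 and Ifi44 joined Mx1 and Oas1a among the calls, 4 in all, and the median was 2.26. Without NC replicate 1 none of the 17 was called by edgeR, although 14 had an unadjusted p under 0.05 (3716 of 17854 over all genes). The median was again 2.28.

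**Figure D3:**
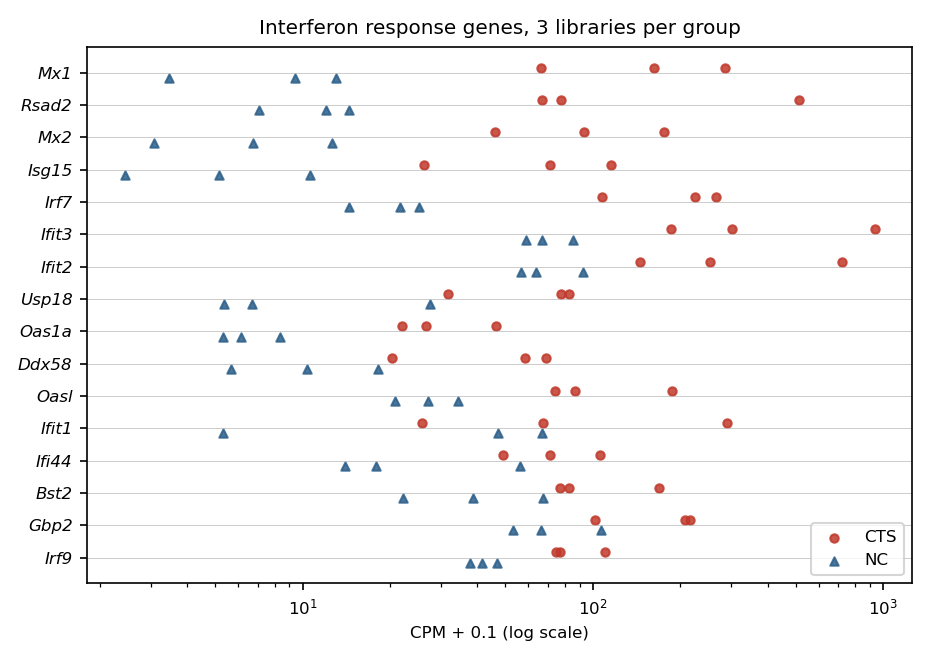
CPM plus 0.1 on a log scale (horizontal axis) of 16 of the 17 interferon response genes, ordered by log2 fold change, in the 3 CTS libraries (red circles) and the 3 NC libraries (blue triangles). The CTS libraries lie above the NC libraries in 13 of the genes shown and overlap them in Ifit1, Ifi44 and Gbp2. Over all genes tested, the CTS libraries lie above the NC libraries in 9.51%.

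Further interferon genes did not pass in edgeR and passed in DESeq2. Rsad2, the antiviral protein viperin, had 515, 66.9 and 77.5 CPM in CTS, against 14.3, 6.96 and 11.9 CPM in NC. Its groups did not overlap, with 1 CTS library far above the others, and the log2 fold change of 4.31 ± 1.21 had an adjusted p of 0.187 in edgeR and 7.05e-05 in DESeq2. Isg15, a ubiquitin-like modifier, had 116, 26.2 and 70.9 CPM in CTS, against 5.05, 10.5 and 2.34 CPM in NC (adjusted p = 0.146 in edgeR and 0.000268 in DESeq2). Irf7, the regulatory factor that amplifies interferon production, had 266, 107 and 225 CPM in CTS, against 25.04, 21.5 and 14.4 CPM in NC. Mx2, a relative of Mx1, had 93.3, 45.9 and 175 CPM in CTS, against 6.66, 12.5 and 2.99 CPM in NC. The edgeR adjusted p was 0.0612 for Irf7 and 0.0726 for Mx2, both just short of the threshold, and the DESeq2 adjusted p was 1.76e-09 for Irf7 and 1.59e-05 for Mx2.

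The promoters of Oas1a and Ctss are shown because they are the called protein-coding genes whose window around the start held the core of the interferon-stimulated response element. The search, chosen after the values were seen, took GAAANNGAAA on both strands within 250 bases before and 50 bases after the start, in the RefSeq sequences of build GRCr8, a different assembly from that of the counts. Capitals mark the matches.
Oas1a: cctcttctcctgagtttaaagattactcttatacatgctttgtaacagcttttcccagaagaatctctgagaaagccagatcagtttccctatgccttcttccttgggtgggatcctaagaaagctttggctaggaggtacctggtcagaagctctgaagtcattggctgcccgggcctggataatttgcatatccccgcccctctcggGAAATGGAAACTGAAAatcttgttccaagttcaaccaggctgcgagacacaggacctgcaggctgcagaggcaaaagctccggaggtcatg
Ctss: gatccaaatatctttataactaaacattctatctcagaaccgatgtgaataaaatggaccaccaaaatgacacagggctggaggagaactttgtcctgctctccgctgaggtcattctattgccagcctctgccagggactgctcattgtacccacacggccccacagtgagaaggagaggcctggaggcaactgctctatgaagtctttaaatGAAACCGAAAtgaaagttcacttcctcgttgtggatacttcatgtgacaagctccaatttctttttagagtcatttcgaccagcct
The Oas1a window, chr12:41330216-41330515 on the plus strand, held 2 overlapping matches that begin 41 and 35 bases before the start. The Ctss window, chr2:185775146-185775445 on the plus strand, held 1 match that begins 36 bases before the start. The table had windows for 25 of the 32 called genes, and 3 held the motif, the other being LOC120100727, an uncharacterized long noncoding RNA. It had windows for 10 of the 17 interferon list genes, of which 7 held it (Bst2, Gbp2, Ifi44, Ifit3, Irf7, Oas1a and Rsad2). Over all 33469 windows the share was 3.92%. That share counts single windows, whereas a called or listed gene counted if any of its windows held the motif, so the bases differ. A match describes the letters alone, and binding was not measured.

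Other genes called higher included Ctss, Cd14, C3ar1 and Tlr8. Ctss, the cysteine protease cathepsin S that trims the class II invariant chain, had 200, 152 and 280 CPM in CTS, against 82.6, 62.2 and 69.3 CPM in NC (log2 fold change 1.56 ± 0.23). Cd14, the co-receptor for lipopolysaccharide, had 259, 303 and 243 CPM in CTS, against 135, 101 and 109 CPM in NC (log2 fold change 1.23 ± 0.17). C3ar1, the receptor for complement fragment C3a, had 49.3, 45.5 and 48.8 CPM in CTS, against 23.5, 13.7 and 17.8 CPM in NC. The CTS libraries were nearly level in Cd14 and C3ar1, unlike in the interferon genes. Tlr8, an endosomal sensor of RNA, had 34.6, 22.7 and 36.3 CPM in CTS, against 10.99, 5.69 and 9.27 CPM in NC. Slamf9, a receptor of the SLAM family, had 32.1, 13.1 and 64.5 CPM in CTS, against 2.46, 1.54 and 1.30 CPM in NC (log2 fold change 4.37 ± 0.56). Sh2d1b, an adaptor of several SLAM family receptors, had 30.1, 24.1 and 31.3 CPM in CTS, against 6.87, 4.92 and 10.6 CPM in NC. Clec4a3, a C-type lectin receptor, had 66.5, 26.1 and 91.9 CPM in CTS, against 9.42, 12.4 and 6.09 CPM in NC. Lilrb3, an immunoglobulin-like receptor, had 52.3, 15.1 and 25.2 CPM in CTS, against 2.72, 2.48 and 2.56 CPM in NC (log2 fold change 3.54 and edgeR adjusted p = 0.0545 without NC replicate 2). Clec4a3, Lilrb3, RT1-T24-3, Oas1a and Ifi27l2b belong to families of similar genes, among which the counting could split reads, so their levels are uncertain.

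The receptor genes Cd22, Gpr183 and Adora2a were also called higher, as were Fgd2 and Slc37a2. Cd22, an inhibitory receptor of B cells, had 24.6, 24.2 and 22.1 CPM in CTS, against 7.21, 9.80 and 8.92 CPM in NC (log2 fold change 1.45 ± 0.19). Gpr183, a receptor for oxysterols that guides immune cells, had 58.0, 38.6 and 68.0 CPM in CTS, against 22.02, 25.4 and 18.8 CPM in NC. Neither Cd22 nor Gpr183 overlapped between the groups. Adora2a, the adenosine receptor A2a, had 38.1, 30.8 and 30.6 CPM in CTS, against 13.9, 11.1 and 14.8 CPM in NC. Fgd2, an exchange factor for the GTPase Cdc42, had 29.9, 22.9 and 23.6 CPM in CTS, against 12.8, 8.72 and 11.6 CPM in NC. Slc37a2, a sugar-phosphate exchanger of macrophages, had 26.7, 19.4 and 32.0 CPM in CTS, against 9.08, 4.47 and 5.51 CPM in NC. The log2 fold change was 1.32 ± 0.21 for Adora2a, 1.21 ± 0.19 for Fgd2 and 2.03 ± 0.31 for Slc37a2.

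Secreted factors called higher included Spp1, Ccl9 and Il1a. Spp1, osteopontin, a phosphoprotein made by osteoblasts and by macrophages, had 476, 236 and 1037 CPM in CTS, against 31.0, 8.31 and 39.0 CPM in NC (log2 fold change 4.48 ± 0.65, adjusted p = 0.0474 in edgeR). It was listed with both the macrophage and the osteoblast genes. Ccl9, a chemokine for monocytes, had 44.9, 13.5 and 67.6 CPM in CTS, against 5.601, 1.76 and 2.30 CPM in NC (log2 fold change 3.70 ± 0.59). It was not called without NC replicate 2 (log2 fold change 3.42, adjusted p = 0.0634 in edgeR). Il1a, the cytokine interleukin 1 alpha, had 116, 90.8 and 105 CPM in CTS, against 33.9, 23.3 and 40.7 CPM in NC (log2 fold change 1.67 ± 0.25). For reference, Il1a had 342, 399 and 551 CPM in GelMA and 2116 and 2291 CPM in PLA.

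A further 4 called genes were low or without a known role. Crmp1, a collapsin response mediator of neurons, had 1.71, 0.980 and 1.77 CPM in CTS, against 0, 0.136 and 0.0766 CPM in NC. Fam78a had 16.9, 9.64 and 17.8 CPM in CTS, against 5.26, 3.43 and 2.91 CPM in NC. LOC120100727 had 239 counts over the 3 CTS libraries, against 0 counts in NC, and was at least 59.6-fold higher at a floor of 3 counts over the NC group. LOC120098921 had 137 counts in CTS, against 0 in NC, and was at least 34.2-fold higher at the same floor, which covers counting error only.

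In all, 4 genes were called lower in CTS. Sfrp2, a secreted antagonist of Wnt signaling made by mesenchymal cells, had 88.8, 95.5 and 127 CPM in CTS, against 284, 923 and 558 CPM in NC (log2 fold change -2.50 ± 0.39). The NC libraries spread more than 3-fold among themselves, and the highest was NC replicate 2. Cilp, a matrix protein of cartilage that binds growth factors, had 34.4, 24.2 and 21.7 CPM in CTS, against 92.9, 138 and 247 CPM in NC (log2 fold change -2.57 ± 0.33). Tgfb3, a growth factor of the TGF-beta family, had 24.9, 25.9 and 38.5 CPM in CTS, against 63.3, 117 and 88.0 CPM in NC (log2 fold change -1.59 ± 0.24). Pappa1, an older symbol of the metalloprotease gene Pappa, had 1.48, 0.980 and 2.75 CPM in CTS, against 9.38, 8.68 and 14.7 CPM in NC (log2 fold change -2.65 ± 0.42). NC replicate 2 was the highest NC library in Sfrp2 and Tgfb3 and not in Cilp or Pappa1. Without it the log2 fold changes were -2.02 for Sfrp2, -1.35 for Tgfb3, -2.67 for Cilp and -2.79 for Pappa1, each with an edgeR adjusted p of 0.0243 to 0.0320.

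GelMA and PLA libraries are set beside these genes without a test, since every contrast would share the NC libraries. All CTS libraries lay above the other 8 libraries for 4 of the 28 genes called higher, Ifi27l2b, Oas1a, RT1-T24-3 and Sh2d1b. The share of all genes tested with this pattern was not computed. Genes called higher already had CTS above NC, which favours the pattern, so nothing is read from it. RT1-T24-3 was at most 28.7 CPM outside CTS, and Oas1a at most 19.8 CPM. For 25 of the 28 genes all GelMA libraries also lay above NC, as they did for 19.3% of all genes tested, and for 26 both PLA libraries did, against 21.9% of all genes. The 28 genes were chosen partly by their low values in the same NC libraries, so nothing is read from these counts. Sfrp2 and Pappa1 were lower in every CTS library than in the other 8, again without a share over all genes tested beside it.

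Lists of cell type markers moved beside these calls, and their part in them was not tested. The monocyte and macrophage list had 18 of 19 genes tested, 2 called higher (Cd14 and Spp1), and a median log2 fold change of 0.92 beside -0.0227 over all genes. Its summed level was 14330, 12770 and 12550 CPM in CTS, against 11560, 3208 and 9619 CPM in NC, with NC replicate 2 the lowest and no overlap. Without NC replicate 2 (109 of 17891 genes called higher) the list had 5 called genes, Cd68, Csf1r and Ccr2 in addition. Without NC replicate 1 (66 of 17854) the list had 7. The list had 0 without NC replicate 3, CTS replicate 1 or CTS replicate 3, where edgeR called 2, 0 and 0 genes higher over all genes. Its lowest member was Cd163, the haemoglobin scavenger receptor, with 0.738, 1.49 and 1.57 CPM in CTS, against 0, 7.998 and 1.26 CPM in NC. The list of dendritic cell and class II genes had 12 of 12 positive, a median of 1.10 and 0 called in edgeR with all libraries, with 6 at an unadjusted p under 0.05 and sums of 1560 to 2672 CPM in CTS and 1104 to 1522 CPM in NC. In edgeR 2 of its genes were called higher without NC replicate 2, Cd74 and RT1-Da, which serve class II antigen presentation, and 1 without NC replicate 1, Ccr7, while DESeq2 called Ccr7 and Cd83. The list had 0 called in edgeR without NC replicate 3, CTS replicate 1 or CTS replicate 3. Its extremes were Ccr7, the homing receptor, with 21.6, 8.95 and 41.6 CPM in CTS, against 5.77, 1.67 and 1.42 CPM in NC, and Itgax, an integrin, with 328, 326 and 262 CPM in CTS, against 364, 92.6 and 325 CPM in NC.

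Lymphocyte markers were low and mostly positive. The T-cell and NK list had 13 of 14 genes positive, a median of 1.48 and 0 called in edgeR with all libraries. An unadjusted p under 0.05 was reached by 12, against 11.9% of all genes. DESeq2 called 3 higher (Cd2, Cd8a and Gzmb), against 159 of 15966 genes. With all 4 groups it called 7 higher, against 373 of 18049. In edgeR 6 were called higher without CTS replicate 2 (Cd3d, Cd3g, Cd2, Cd5, Cd8a and Lck), against 129 of 17876. Without any other single CTS or NC library edgeR called 0. The sum of the list was 326, 195 and 386 CPM in CTS, against 170, 110 and 190 CPM in NC, so the groups did not overlap. Klrd1, a natural killer cell receptor, had 10.6, 2.97 and 7.21 CPM in CTS, against 0, 2.53 and 2.41 CPM in NC, whereas Nkg7, a granule protein, had 72.7, 73.0 and 56.2 CPM in CTS, against 89.1, 17.4 and 96.4 CPM in NC. The B-cell list had a median of 1.45 and 1 of 13 genes called, Cd22. Without NC replicate 2 the list had 2 called (109 of 17891 over all genes) and without NC replicate 1 it had 4 (66 of 17854). Without NC replicate 3, CTS replicate 1 or CTS replicate 3 it had 0. In DESeq2 the list had 6 (159 of 15966). Its sum was 246, 213 and 198 CPM in CTS, against 96.7, 249 and 108 CPM in NC, which overlapped through Ebf1, a factor shared with stromal cells, at 45.8, 61.0 and 57.2 CPM in CTS, against 23.7, 210 and 43.4 CPM in NC. Ms4a1, the B-cell surface protein Cd20, had 6.82, 4.17 and 14.3 CPM in CTS, against 1.87, 0.678 and 0.498 CPM in NC (adjusted p = 0.107 in edgeR and 0.00397 in DESeq2). The neutrophil list had 4 of 14 genes positive, a median of -0.19 and 0 called in edgeR or DESeq2 (1 in edgeR at an unadjusted p under 0.05, Fcnb). Its median was -0.65 without NC replicate 2 and 0.40 without NC replicate 1. Fcnb, a ficolin, had 967, 837 and 712 CPM in CTS, against 502, 134 and 398 CPM in NC, and Ngp, a granule protein, had 3816, 5714 and 923 CPM in CTS, against 8325, 1305 and 6300 CPM in NC. Of the listed markers in the count table, only 1, of the cartilage list, was at 0 in all 6 libraries. The table held no gene at 0 in all 11 libraries, which favours this, and listed markers absent from it could not be judged.

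Fibroblast and matrix lists turned on NC replicate 2. Of 19 fibroblast matrix genes, 1 was higher in CTS with all libraries, S100a4, and 0 were called in edgeR, with 0 at an unadjusted p under 0.05. The median log2 fold change was -1.27 with NC replicate 2 and 0.45 without it, where all 19 genes were positive and 3 had an unadjusted p under 0.05 (Fn1, Postn and S100a4). Without NC replicate 1 the median was -1.76 and 17 of the 19 had an unadjusted p under 0.05, and without NC replicate 3 it was -1.68 with 6 such genes, again with 0 called in edgeR. Col1a1, the main chain of type I collagen, had 7319, 9613 and 11850 CPM in CTS, against 3497, 73590 and 9593 CPM in NC, and its log2 fold change was -1.59 ± 0.85 with NC replicate 2 and 0.55 without it. Col6a3, the lowest of the list at -1.69 ± 0.78, was at 0.14 without it. S100a4, a calcium-binding protein used as a fibroblast stain, had 210, 173 and 198 CPM in CTS, against 110, 257 and 126 CPM in NC. Matrix proteases and inhibitors gave a median of -0.73 with NC replicate 2 and 0.17 without it. Plau, the urokinase gene, was their lowest member at 114, 118 and 196 CPM in CTS, against 154, 1290 and 338 CPM in NC (log2 fold change -2.06 with NC replicate 2 and -0.79 without it), and Mmp12, the macrophage elastase, their highest at 17.0, 6.42 and 58.4 CPM in CTS, against 14.5, 0.587 and 1.99 CPM in NC.

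**Figure D4:**
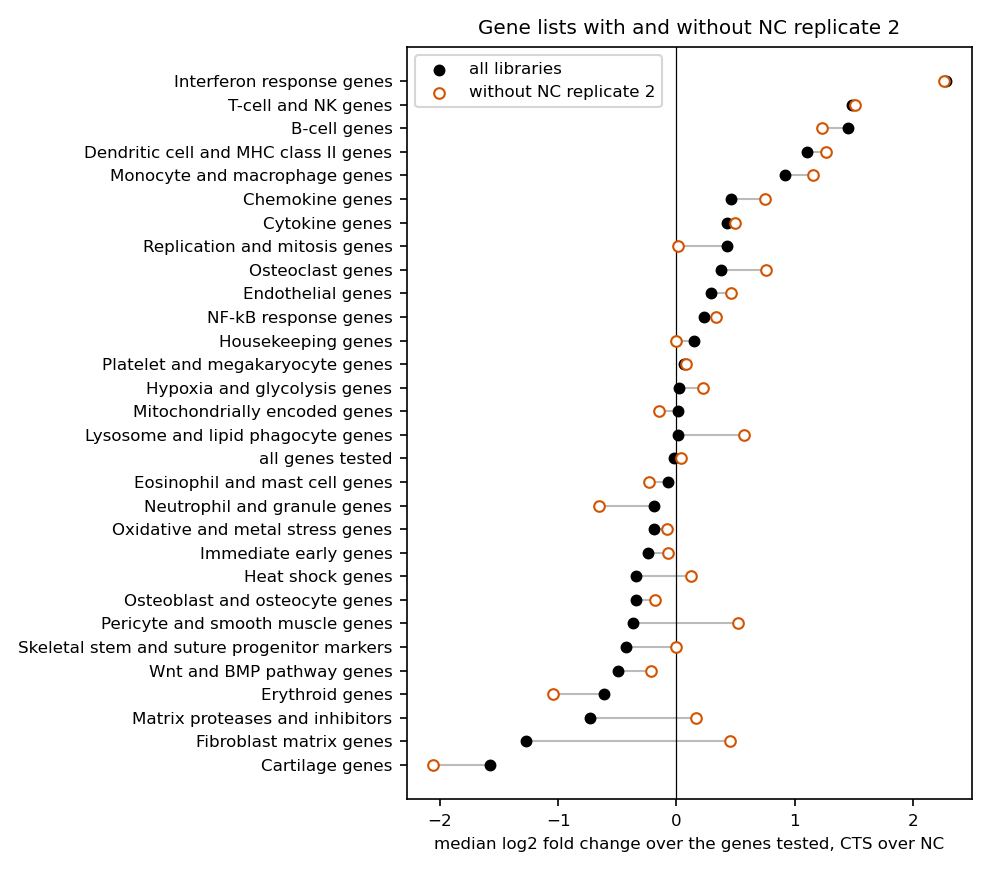
Median log2 fold change, CTS over NC, of the genes tested in each list and of all genes tested (horizontal axis), with all libraries (filled) and without NC replicate 2 (open). The interferon list lies at 2.28 and 2.26, while the fibroblast matrix list lies at -1.27 and 0.45.

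The cartilage list did not turn with that library. All 9 cartilage genes tested were lower in CTS, with a median of -1.58, 4 at an unadjusted p under 0.05 (Acan, Chad, Col11a1 and Comp) and 0 called in edgeR. Without NC replicate 2 the median was -2.06, again with 0 positive, and Acan, the proteoglycan aggrecan, and Col11a1, a minor fibrillar collagen, were called lower. DESeq2 called Comp and Chad lower. The summed level was 40.7, 24.4 and 36.6 CPM in CTS, against 118, 46.3 and 223 CPM in NC. These levels were low, and the groups did not overlap. Comp, the matrix protein with the lowest fold change of the list, had 2.89, 0.253 and 0.983 CPM in CTS, against 7.43, 5.196 and 49.6 CPM in NC (log2 fold change -3.90 ± 1.01, adjusted p = 0.156 in edgeR and 0.0158 in DESeq2). Matn3, a matrilin and the highest member, had at most 0.207 CPM in CTS and 0.542 CPM in NC. Among the 6 largest uncalled changes at an average log2 CPM of at least 3, Scg2, a secretory granule protein outside the lists, was the 1 fall and had 6.35, 0.632 and 0.459 CPM in CTS, against 8.23, 41.4 and 32.6 CPM in NC (log2 fold change -3.46, adjusted p = 0.251 in edgeR and 0.0394 in DESeq2). LOC120097562, also among these 6, was at 17.5, 11.8 and 37.7 CPM in CTS, against 3.06, 2.48 and 0.612 CPM in NC (log2 fold change 3.45, adjusted p = 0.0612 in edgeR and 0.00043 in DESeq2).

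Bone lineage genes gave 1 call. Among 12 osteoblast and osteocyte genes tested, Spp1 alone was called, and the list median was -0.34. Runx2, the master regulator of osteoblasts, had 45.8, 36.8 and 48.2 CPM in CTS, against 44.3, 35.6 and 49.4 CPM in NC, with a 95% interval of the log2 fold change of -0.34 to 0.37. Alpl, the alkaline phosphatase of mineralizing cells, had 36.7, 106 and 135 CPM in CTS, against 192, 32.4 and 175 CPM in NC. Ibsp, bone sialoprotein, had 11.1, 9.04 and 61.8 CPM in CTS, against 21.8, 10.4 and 32.4 CPM in NC. The groups overlapped in these 3 genes. Sp7, the osteoblast factor osterix, was near the limit of counting, with 0.118, 1.04 and 0.197 CPM in CTS, against 2.38, 0 and 0.651 CPM in NC. Phex, an osteocyte peptidase, had 0.148, 0.506 and 0.197 CPM in CTS, against 3.22, 4.92 and 0.268 CPM in NC, and Mepe did not pass the filter on low counts. The osteoclast list had 0 of 10 called in edgeR and 5 at an unadjusted p under 0.05, all higher in CTS (Acp5, Atp6v0d2, Ocstamp, Oscar and Tnfrsf11a). DESeq2 called Atp6v0d2 and Ocstamp higher, and edgeR without NC replicate 1 called Atp6v0d2. Atp6v0d2, a proton pump subunit of osteoclasts and macrophages, had 2.48, 1.42 and 7.64 CPM in CTS, against 0.297, 0.0452 and 0.0383 CPM in NC (adjusted p = 0.0612 in edgeR and 0.000954 in DESeq2). Calcr, the calcitonin receptor, had 0.916, 0.0632 and 0.361 CPM in CTS, against 0.721, 2.03 and 0.804 CPM in NC. Ctsk, the osteoclast protease cathepsin K, had 109, 149 and 235 CPM in CTS, against 74.8, 625 and 166 CPM in NC.

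None of the stem and progenitor markers was called in edgeR, whereas DESeq2 called 1 lower, Gli1. With all 4 groups DESeq2 called Gli1 lower and Cd200 higher, against 215 lower and 373 higher of 18049 genes. In edgeR 4 of the 20 had an unadjusted p under 0.05, 1 of them higher (Cd200) and 3 lower in CTS (Axin2, Gli1 and Six2, targets of Wnt and hedgehog signaling and a suture factor). The median of the 20 was -0.42, and -0.00775 without NC replicate 2, where 10 were positive. Cd200, a surface glycoprotein of skeletal stem cells, had 26.6, 21.8 and 53.2 CPM in CTS, against 15.5, 15 and 16.6 CPM in NC, without overlap (log2 fold change 1.10 ± 0.31, adjusted p = 0.187 in edgeR and 0.215 in DESeq2 on CTS and NC alone). Cd44, the hyaluronan receptor, had 851, 912 and 738 CPM in CTS, against 837, 693 and 689 CPM in NC, with a 95% interval of -0.19 to 0.54. Itgav, an integrin subunit, had 75.3, 86.9 and 114 CPM in CTS, against 78.6, 168 and 99.2 CPM in NC. The groups overlapped in Itgav and in the markers that follow. Eng, a co-receptor of TGF-beta, had 27.0, 29.4 and 59.3 CPM in CTS, against 23.8, 70.8 and 37.7 CPM in NC. Thy1, a surface marker of mesenchymal cells, had 108, 87.4 and 103 CPM in CTS, against 48.4, 167 and 90.9 CPM in NC. Pdgfra, a growth factor receptor of fibroblasts, had 51.4, 64.8 and 113 CPM in CTS, against 41.0, 336 and 104 CPM in NC. Msx2, a homeobox gene of the suture and the lowest marker, had 0.384, 0.885 and 0.885 CPM in CTS, against 2.29, 0.542 and 4.94 CPM in NC. Mki67, a marker of cycling cells, had 271, 265 and 174 CPM in CTS, against 268, 61.7 and 205 CPM in NC.

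Signaling lists held few calls in edgeR, and which genes were called changed with the setting. Il1a was the 1 cytokine called of 26 with all libraries, and without NC replicate 2 there were 3, with Csf2 and Ifng in addition. Ccl9 was the 1 chemokine called of 23 with all libraries, 0 were called without NC replicate 2 (12 at an unadjusted p under 0.05), and DESeq2 called 3 (Ccl4, Ccl9 and Ccl12). Ifng, the type II interferon, had 1.89, 0.253 and 1.80 CPM in CTS, against 0, 0.542 and 0 CPM in NC. These levels were near the limit of counting, and the groups overlapped through NC replicate 2, the 1 NC library with any count. The log2 fold change was 2.88 with all libraries (adjusted p = 0.389 in edgeR and 0.648 in DESeq2), and Ifng was called higher by edgeR without NC replicate 2 (adjusted p = 0.0494), where both other NC libraries were at 0. Ccl12, a monocyte chemokine, had 2.27, 0.474 and 7.11 CPM in CTS, against 0, 0 and 0.0383 CPM in NC (adjusted p = 0.0612 in edgeR and 0.000631 in DESeq2), and Cxcl14, a chemokine of stromal cells, had 17.9, 4.08 and 19.8 CPM in CTS, against 33.7, 22.5 and 58.7 CPM in NC. Tnfrsf11b, the RANKL decoy osteoprotegerin, had 10.3, 42.6 and 26.2 CPM in CTS, against 3.06, 174 and 23.1 CPM in NC. Of 24 Wnt and BMP pathway genes, Sfrp2 was called lower and 0 higher, and Tcf7, a nuclear effector of Wnt that T cells also use, had 40.4, 10.8 and 35.5 CPM in CTS, against 9.76, 4.79 and 7.12 CPM in NC and was called higher by DESeq2 (adjusted p = 0.0377). Of 16 lysosome and lipid phagocyte genes, Ctss was called, and Lpl, lipoprotein lipase, was lowest with 138, 72.7 and 230 CPM in CTS, against 26.01, 666 and 77.0 CPM in NC. Its log2 fold change was -0.80 with NC replicate 2 and 1.51 without it, and it was not called by edgeR in either.

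The CTS libraries varied less among themselves than the NC libraries. The median SD of log2 CPM over 3 libraries was 0.318 in CTS and 0.647 in NC, and the SD was larger in NC for 13955 genes (77.3%). NC replicate 2 was the library farthest from the other NC libraries for 9194 genes (50.9%). NC replicate 1 also stood apart. It had counts for 16145 genes, against 18243 and 18978 in NC replicates 2 and 3 and 18882 to 19194 in CTS. As whole profiles, NC replicate 3 was about as far from NC replicate 1 (1.38) as from NC replicate 2 (1.39). For 6788 genes, or 37.7% of the 18024 genes with an estimate, the whole 95% interval of the fold change lay inside 2-fold, and for 11593 (64.3%) it lay inside 4-fold. These intervals use a spread shared by all 4 groups, not that of NC and CTS alone. With CTS and NC fitted alone, 5499 genes of 15966 tested had an interval inside 2-fold. All 13 mitochondrially encoded genes and 12 of 15 housekeeping genes were inside 2-fold, as were 12 of 16 NF-kB response genes. None of the 17 interferon genes, 9 cartilage genes or 14 T-cell and NK genes was. Intervals inside 2-fold held for 70.7% of genes at an average log2 CPM of 6 to 8, for 40.1% at 2 to 4 and for none of the 3796 genes below 0.

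To reach the p of the last called gene, 8.93e-05, genes needed a median 5.86-fold change at their own standard error. For 1890 genes (10.5%) a change of at most 2-fold would have reached it, and 10901 (60.5%) needed more than 4-fold. At an average log2 CPM of 6 to 8 the median need was 2.34-fold, at 2 to 4 it was 4.41-fold and at 0 to 2 it was 15.6-fold. Without NC replicate 2 and at the same p, the median need was 4.14-fold over all genes and 1.80-fold at an average log2 CPM of 6 to 8. Of the genes not called, 3627 had an estimate beyond 2-fold, and in 1068 of these the CTS and NC libraries did not overlap. Of the 3627, DESeq2 called 236, so that the limit given here belongs to the edgeR fit of all 4 groups. The fold needed was not computed with CTS and NC alone. A gene that was not called was not shown to be level between the groups.

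**Figure D5:**
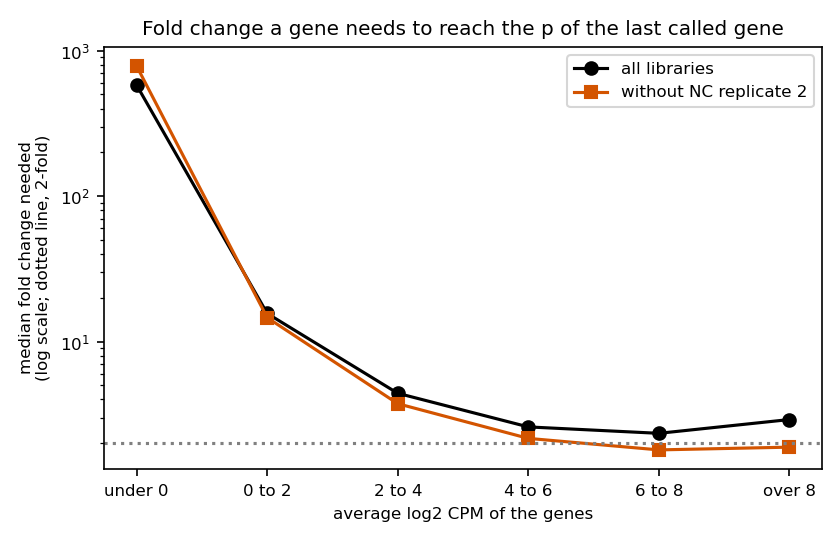
Median fold change that genes needed to reach the p of the last called gene (vertical axis, log scale) by average log2 CPM (horizontal axis), with all libraries (black) and without NC replicate 2 (orange). At 6 to 8 the need is 2.34-fold and 1.80-fold, against 2-fold at the dotted line.

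Among genes at an average log2 CPM of at least 3, 5 of the 6 with the largest SD of log2 CPM over the NC libraries were at 0 in at least 1 NC library, all but Rgma. Rgma, a BMP co-receptor, had 8.004, 8.60 and 11.1 CPM in CTS, against 0.170, 46.5 and 8.84 CPM in NC, and Miat, a noncoding RNA, had 8.45, 6.29 and 5.15 CPM in CTS, against 0, 24.7 and 4.67 CPM in NC. Gzma, a granzyme of cytotoxic cells, had 6.29, 1.14 and 6.92 CPM in CTS, against 0, 6.19 and 4.98 CPM in NC. In each of them NC replicate 1 was lowest and NC replicate 2 highest. LOC120101677 had 11.6, 14.2 and 38.5 CPM in CTS, against 34.3, 0 and 36.2 CPM in NC, and LOC691828 had 14.2, 37.4 and 23.5 CPM in CTS, against 0, 0 and 7.66 CPM in NC. LOC108349043 had 0, 13.4 and 0.0328 CPM in CTS, against 0, 0 and 12.1 CPM in NC, so that here the CTS libraries differed as widely as the NC libraries.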

How the data were processed

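RNA-seq of sorted Cd45- cells was analysed for 3 CTS and 3 NC libraries, with 3 GelMA and 2 PLA libraries in the same model. The submitters' processing notes name fastp, HISAT2, HTSeq and DESeq and the rat build mRatBN7.2, with versions not given in the sources used here. The deposited counts are reads per gene for 23781 genes, and the deposited FPKM are these counts divided by library total and a constant per gene (all 205408 values above 0, relative tolerance 0.01). Groups and replicates came from the sample titles.

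In R 4.3.3, genes were kept by filterByExpr (minimum count 10), scaled by TMM factors, which offset differences in composition, and compared in a robust edgeR 4.0.16 quasi-likelihood model of all 4 groups, which share the estimate of spread. Levels are CPM after TMM. The SE is the log2 fold change divided by the square root of F, and 25 genes with 0 counts in both groups had no interval. The fold a gene needed was its SE times the quantile at the p of the last called gene. The tests were checked on simulated data in which all libraries had the same dispersion. That check does not cover the unequal spread of CTS and NC or a library that stands apart. The gene lists, the naming rule and the members were chosen with earlier results of these data known. The rule named called genes, a panel of genes the study stained or measured, list extremes (given for the lists described by name), the 6 largest uncalled changes and the 6 largest NC SDs at an average log2 CPM of at least 3. Genes named outside this rule (Axin2, Gli1, Timd2 and the like) were chosen after their values were seen. Distances used a prior count of 2. Genes at 0 counts in NC were given a floor of 3 counts. Alternatives used DESeq2 1.42.0, limma 3.58.1 (voom with sample quality weights, and log2(FPKM + 1) or log2(FPKM + 0.1) for genes reaching FPKM 1 in 2 libraries, and log2(FPKM + 1) unfiltered), RLE or library-size scaling, no filter, a replicate block and leaving out each library. The values of 2 named genes are not reported here. Python 3.11.15 with matplotlib 3.10.9 made the figures.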

Additional observations from a re-analysis of the deposited data

How the results depend on the processing

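All 32 called genes kept their direction in every alternative that tested them, which their lack of overlap between the groups favours. Each of the 31 reported by name was called in 9 to 13 of up to 23 alternatives planned, with edgeR adjusted p up to 0.194 when single libraries were left out. Counts of calls depended strongly on the setting. RLE size factors gave 8 higher and 1 lower, library size alone 78 and 7, no filter on low counts 54 and 10, DESeq2 on all 4 groups 373 and 215, DESeq2 on CTS and NC alone 159 and 113, limma voom with sample quality weights 220 and 264, limma on log2(FPKM + 1) 42 and 7, limma on log2(FPKM + 0.1) 86 and 7, and limma on log2(FPKM + 1) without a filter 2 and 0. An adjusted p under 0.01 in edgeR gave 0 and 0, against 2149 genes at an unadjusted p under 0.05. With edgeR on CTS and NC alone there were 0 and 0 (1034 at an unadjusted p under 0.05). Sample numbers did not pair the libraries (correlations of same-numbered deviations 0.118, -0.0834 and -0.108), and the replicate block on all 4 groups gave 0 higher and 0 lower, with 1714 genes at an unadjusted p under 0.05. Leaving out single libraries gave 0 to 129 higher and 0 to 39 lower, a difference between and within groups of -0.105 to 0.258, and 3895 to 7966 genes with an interval inside 2-fold. The lowest of these counts came from edgeR on CTS and NC alone without an NC library, a setting added after seeing the data. The same count was 18954 with limma on log2(FPKM + 1) without a filter, which compresses low values. Scaling by library size alone moved the median log2 fold change of all genes to 0.119, against -0.0227. The causes of these differences were not tested.

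Among uncalled genes, the sign of the log2 fold change turned as follows. With single libraries left out, ranges were -1.87 to 0.973 for Cd163, -2.12 to 0.551 for Col1a1, -2.20 to 0.143 for Col6a3, -1.27 to 0.446 for Ctsk, -1.22 to 0.702 for Ebf1, -0.668 to 0.325 for Eng, -1.12 to 0.726 for Ibsp, -0.539 to 0.0475 for Itgav, -0.173 to 0.548 for Itgax, -1.34 to 1.51 for Lpl, -0.464 to 0.313 for Nkg7, -1.52 to 0.0787 for Pdgfra, -0.175 to 0.630 for Ptprc, -0.105 to 0.0964 for Runx2, -2.68 to 0.454 for Sp7, -0.371 to 0.517 for Thy1 and -1.92 to 1.00 for Tnfrsf11b. Voom gave 0.160 for Cd163, 0.277 for Ebf1, -1.04 for Ibsp, 0.671 for Lpl, -0.179 for Runx2 and 0.166 for Thy1. Library size alone gave 0.0236 for Eng, 0.0417 for Nkg7 and 0.188 for Thy1. The replicate block gave 0.1 for Nkg7 and 0.0396 for Thy1. Limma on log2(FPKM + 1), with and without a filter, gave 0.01 for Eng, 0.382 for Lpl, 0.464 for Nkg7 and 0.284 for Thy1, and on log2(FPKM + 0.1) 0.00442 for Ebf1, 0.0109 for Eng, 0.415 for Lpl, 0.484 for Nkg7, 0.293 for Thy1 and 0.0922 for Tnfrsf11b. Runx2 was -0.0387 with RLE, -0.00673 with no filter, -0.0185 with edgeR on CTS and NC alone, -0.0390 with DESeq2 on all 4 groups and -0.0331 with DESeq2 on CTS and NC alone.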
